A study of Homo sapiens with 6 samples.

Results

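The 10 genes described here, IFIH1, DHX58, MAVS, TLR3, EIF2AK2, ADAR, TBK1, IRF3, DICER1 and DHX9, act where a cell meets double-stranded RNA. They were taken by symbol from a table of 38637 genes, and each of the 10 symbols was found there once. RNA was sequenced from OVCAR8, a human ovarian cancer cell line of wild type genotype, after 72 h with DMSO, the solvent, or with pladienolide B (plaB) at a dose of 2 nM. Pladienolide B is a small molecule that binds SF3B1, a core protein of the spliceosome, and slows the removal of introns. Each group held 3 samples, and the sources do not say whether these were separate cultures, so the p-values measure the spread between these samples only, which may be technical. The comparison asks which parts of the RNA sensing machinery differed in level after treatment of the spliceosome.

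Long double-stranded RNA is rare in uninfected cells and is read as a sign of viral infection. In the cytoplasm the helicases RIG-I and MDA5 bind it and pass the signal through MAVS on mitochondria to the kinase TBK1 and the transcription factor IRF3, which switches on interferon genes. TLR3 reads it inside endosomes, and the kinase PKR (EIF2AK2) stops translation when it binds it. ADAR edits adenosines in it, DICER1 cuts it into small RNAs and DHX9 unwinds it. DNA in the cytoplasm is read by CGAS, which signals through STING1 to the same TBK1 and IRF3. Of the 10 genes, TBK1 and IRF3 serve both routes. CGAS and STING1 are not among the 10 and are given from a list of further genes.

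The samples held between 22621338 and 26130882 recovered reads on genes. DMSO replicate 2 stood further from the other DMSO samples (chi-square per degree of freedom of 7.34 and 7.25) than these stood from each other (2.01), and no sample duplicated another. Of 8 epithelial markers all were tested, with a summed level of 80756 to 86644 adjusted reads in DMSO and 81189 to 96559 in plaB. PAX8, the lineage factor of this cancer, was abundant, while WT1 and MUC16 had at most 32 and 24 reads in a sample. Of these markers KRT8 (log2 fold change 0.27) and KRT18 (0.29) rose, and KRT7 (−0.64) and MSLN (−0.44) fell. The 10 markers of immune, endothelial and blood cells summed to 72.7 to 120 adjusted reads in DMSO and 96.1 to 123 in plaB, with CD3E at 0 reads in every sample and PTPRC at 0 to 2. ITGAM, at 11 to 34 reads, was the only one of the 3 tested markers of these cells past the threshold (log2 fold change −0.99, limma adjusted p = 0.021), a call lost by limma without DMSO replicate 2 (0.079), DMSO replicate 3 (0.1), plaB replicate 1 (0.059) or plaB replicate 2 (0.057), or with no filter on low values (0.059). The part of these markers in the results below was not tested. SF3B1 itself, the protein target of the compound, stood at 9787, 10387 and 10083 adjusted reads in DMSO and at 12345, 12892 and 12289 in plaB (log2 fold change 0.31, limma adjusted p = 7.5e-06).

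Of the 10 genes, 9 had enough reads to be tested and 7 of these passed the threshold, an adjusted p below 0.05 by limma, while 47.6% of the 16178 genes tested did. Those higher in plaB were EIF2AK2, MAVS and ADAR, 3 genes, where the share among all tested genes was 22.4%. Those lower were IFIH1, TLR3, DICER1 and DHX9, 4 genes, against a share of 25.2%. In 8 of the 9 the samples of the groups did not overlap, which held for 55.3% of all tested genes. The median log2 fold change of the 9 was 0.05, beside −0.004 over all tested genes, and only IFIH1 moved by at least 1 on this scale. Values are adjusted reads, which are reads scaled to a common library size, and fold changes are of plaB over DMSO on the log2(value + 1) scale. In a bulk sample, fewer cells that express a gene and less RNA per cell cannot be told apart.

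**Figure D1:**
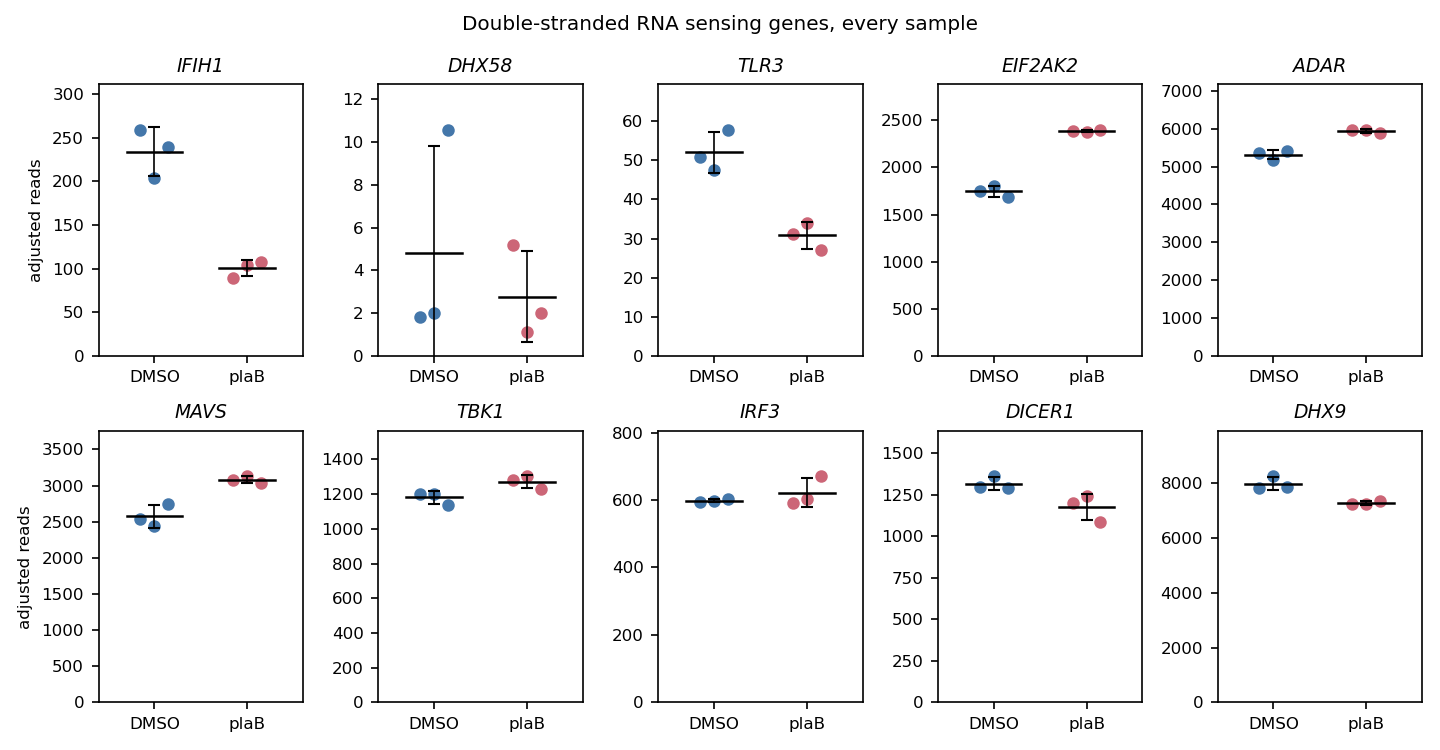
Adjusted reads (vertical axes, from 0) of the 10 genes in each of the 3 DMSO (blue) and 3 plaB (red) samples, with the mean as a horizontal line and the SD as an error bar. IFIH1 drops from 204 to 259 in DMSO to 89.8 to 107 in plaB, while EIF2AK2 climbs from at most 1804 in DMSO to at least 2379 in plaB, and DHX58 stays at 10.6 or less.

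IFIH1 fell the furthest of the 9. IFIH1 encodes MDA5, the cytoplasmic receptor for long double-stranded RNA, and lies on chromosome 2 at chr2:162267074-162318684 on the minus strand (GRCh38), where its canonical transcript has 16 exons. It had 259, 204 and 239 adjusted reads in the DMSO samples and 89.8, 105 and 107 in the plaB samples. Every plaB sample lay below every DMSO sample, and the mean fell from 234 ± 28.2 (SD, n = 3) to 101 ± 9.37 (n = 3), which is 42.9% of the DMSO mean. The log2 fold change was −1.21 with a standard error of 0.13 and a 95% confidence interval of −1.49 to −0.93 (limma adjusted p = 1.1e-06). Leaving out any sample in turn gave −1.30 to −1.13. Among all tested genes, 160 (0.989%) fell at least this far.

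TLR3, the endosomal receptor for double-stranded RNA, fell as well, at a much lower level. TLR3 lies at chr4:186069156-186088073 on the plus strand and has 5 exons. Its adjusted reads were 50.8, 47.4 and 57.8 in DMSO and 31.3, 34.1 and 27.1 in plaB. The groups did not overlap, and the mean of 52 ± 5.3 became 30.8 ± 3.52, or 59.2% of DMSO. The log2 fold change was −0.74 (SE 0.22, 95% CI −1.20 to −0.28, limma adjusted p = 0.010). Without DMSO replicate 3, the highest sample, it was −0.66 and the adjusted p by limma was 0.052.

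DHX58 encodes LGP2, a helicase related to MDA5 that lacks the signalling domains and tunes the response of the other receptors. It lies at chr17:42101404-42112721 on the minus strand. Reads were 2, 2 and 11 in DMSO and 5, 1 and 2 in plaB, too few to be tested. The highest sample and the second highest belong to different groups, and at this depth no difference was detectable. With no filter on low values, limma put the log2 fold change at −0.44 (adjusted p = 0.65).

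DDX58, the symbol the table uses for the gene of RIG-I, the receptor for short and 5′-triphosphate RNA, also fell. It had 530, 577 and 571 adjusted reads in DMSO and 389, 468 and 444 in plaB (log2 fold change −0.37, SE 0.08, limma adjusted p = 0.0013). The lowest DMSO sample was above the highest plaB sample. Of the receptors described so far, IFIH1, TLR3 and DDX58 were each lower in all 3 plaB samples than in any DMSO sample. The groups of DHX58 overlapped, and EIF2AK2, whose product also binds double-stranded RNA, rose (log2 fold change 0.45). Groups that do not overlap, in either direction, were found for 55.3% of all tested genes.

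The promoter windows of the genes differ in whether they hold the core of the interferon-stimulated response element (ISRE), the site that interferon-activated factors and IRF proteins bind. The core was searched as GAAA, any 2 bases, GAAA on both strands, in RefSeq windows (GRCh38.p14) from 250 bases before to 50 after the start of a gene. The start is that of RefSeq, and for EIF2AK2 it lies inside the gene position given further on. It was found in 996 of 27305 windows, or 3.65%. Of the 10 genes 8 had a window, with DHX58 and IRF3 not in the table, and the core was found in IFIH1, TLR3 and EIF2AK2. A match is a run of letters and not a shown binding site. The IFIH1 and EIF2AK2 windows lie on the minus strand and the TLR3 window on the plus strand, each is written 5′ to 3′ in the direction of its gene, and capitals mark the core. In the first IFIH1 window 2 overlapping matches form the capitals. The windows are shown because these are the 3 of the 8 that hold the motif.

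IFIH1, chr2:162318803-162318868: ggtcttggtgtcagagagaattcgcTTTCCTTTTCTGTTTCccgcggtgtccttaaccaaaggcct

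IFIH1, chr2:162318671-162318730: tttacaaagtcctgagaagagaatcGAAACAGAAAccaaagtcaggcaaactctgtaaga

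TLR3, chr4:186069127-186069185: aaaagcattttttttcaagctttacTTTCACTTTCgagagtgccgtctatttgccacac

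EIF2AK2, chr2:37156952-37157011: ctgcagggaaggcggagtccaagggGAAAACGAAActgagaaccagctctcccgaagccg

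IFIH1 with 3 matches and TLR3 with 1 fell, and EIF2AK2 with 1 match rose. The other 5 windows, of MAVS, ADAR, TBK1, DICER1 and DHX9, held no match. Over the sensor genes and the 7 lists of related genes described further on, 10 tested genes held the core, of which 5 were lower (IFIH1, TLR3, DDX60, OAS3 and IFIT1), 2 higher (EIF2AK2 and DHX15) and 3 did not pass the threshold (IFIT3, ISG15 and MX1). Of the 84 tested genes that had a window without the core, 19 were lower and 29 higher. Tested genes with no window, such as IRF3, were not searched. Over all tested genes with a window, 23.2% of the 345 with the core were lower and 22.3% higher, and 26.3% of the 11855 without it were lower and 22.9% higher. The windows also differed in base composition, with 40.3% G and C in TLR3, 50.7% in IFIH1 and 72.3% in EIF2AK2, beside a median of 58.3% over all windows.

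MAVS, the adaptor on the mitochondrial membrane to which RIG-I and MDA5 both report, rose while these receptors fell. It lies at chr20:3846834-3876118 on the plus strand and has 7 exons. MAVS had 2537, 2434 and 2752 adjusted reads in DMSO and 3082, 3130 and 3041 in plaB. All plaB samples were above all DMSO samples, and the mean moved from 2574 ± 162 to 3084 ± 44.6, a difference of 19.8%. The log2 fold change was 0.26 (SE 0.05, 95% CI 0.16 to 0.37, limma adjusted p = 0.0003).

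TBK1, the kinase that phosphorylates IRF3, and IRF3, the factor that induces interferon beta, did not pass the threshold. TBK1 (chr12:64452105-64502114, plus strand) had 1201, 1203 and 1140 adjusted reads in DMSO and 1283, 1303 and 1229 in plaB. The groups did not overlap, but the lowest plaB sample and the highest DMSO sample were closer than the SDs of 36 and 38.5. The log2 fold change was 0.11 (SE 0.05, 95% CI −0.01 to 0.22, limma adjusted p = 0.11), an interval that in fold terms runs from 0.996 to 1.16.

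IRF3 (chr19:49659572-49665857, minus strand) had 594, 597 and 603 adjusted reads in DMSO, the tightest group of any of the 10 genes in DMSO, and 592, 602 and 670 in plaB. The groups overlapped, and plaB replicate 3 was the only sample above 603. The log2 fold change was 0.05 (SE 0.07, limma adjusted p = 0.55), with an interval of 0.938 to 1.15 in fold terms. Without plaB replicate 3 it was −0.002. BCL2L12 overlaps IRF3 on the other strand by 1024 bases, and the sources do not say that reads were counted by strand, so reads in that overlap cannot be told apart. BCL2L12 had a log2 fold change of 0.04 (limma adjusted p = 0.61).

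EIF2AK2 rose the most of the 9. EIF2AK2 encodes PKR, which on binding double-stranded RNA phosphorylates the initiation factor eIF2 and shuts down protein synthesis. It lies at chr2:37099210-37157065 on the minus strand and has 17 exons. Adjusted reads were 1746, 1804 and 1686 in DMSO and 2386, 2379 and 2399 in plaB. The plaB samples lay close together and all above the DMSO samples, with means of 1746 ± 59.2 and 2388 ± 10.1, a difference of 36.8%. The log2 fold change was 0.45 (SE 0.05, 95% CI 0.35 to 0.55, limma adjusted p = 5.6e-07), and 9.37% of all tested genes rose at least as far. The neighbouring gene GPATCH11, which overlaps it by 35 bases on the other strand, rose as well (log2 fold change 0.37, limma adjusted p = 3.7e-05).

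ADAR, which edits adenosine to inosine in double-stranded RNA and so keeps the cell's own RNA from MDA5 and PKR, rose by less. It lies at chr1:154582057-154627997 on the minus strand and has 15 exons. ADAR had 5364, 5173 and 5402 adjusted reads in DMSO and 5954, 5972 and 5875 in plaB. The groups were apart, and the difference in means was 11.7% (log2 fold change 0.16, SE 0.04, 95% CI 0.08 to 0.24, limma adjusted p = 0.003). CHRNB2, a gene on the other strand that overlaps ADAR by 2652 bases, moved with it, from a mean of 2098 to 2370 adjusted reads (log2 fold change 0.18, limma adjusted p = 0.0036), and without strand their reads cannot be told apart.

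DHX9 and DICER1 were lower by a small margin, at 91.2% and 89.4% of the DMSO mean. DHX9, a nuclear helicase that unwinds structured RNA such as paired repeats, lies at chr1:182839347-182887982 on the plus strand and has 28 exons. DHX9 had 7791, 8237 and 7852 adjusted reads in DMSO and 7216, 7236 and 7331 in plaB. The groups did not overlap, and the means were 7960 ± 242 and 7261 ± 61 (log2 fold change −0.13, SE 0.04, 95% CI −0.22 to −0.05, limma adjusted p = 0.011). Without a variance trend the adjusted p by limma was 0.063.

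DICER1, the RNase III enzyme that makes microRNAs and small interfering RNAs, lies at chr14:95086228-95158263 on the minus strand and has 27 exons. It had 1297, 1361 and 1287 adjusted reads in DMSO and 1198, 1243 and 1087 in plaB. The groups did not overlap, and the means were 1315 ± 39.9 and 1176 ± 80.2 (log2 fold change −0.16, SE 0.06, 95% CI −0.29 to −0.04, limma adjusted p = 0.030). This was the least stable of the 7 calls and held in 7 of 13 alternative analyses. It was lost by limma without DMSO replicate 1 (adjusted p = 0.054), DMSO replicate 2 (0.06), plaB replicate 1 (0.052) or plaB replicate 3 (0.17).

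**Figure D2:**
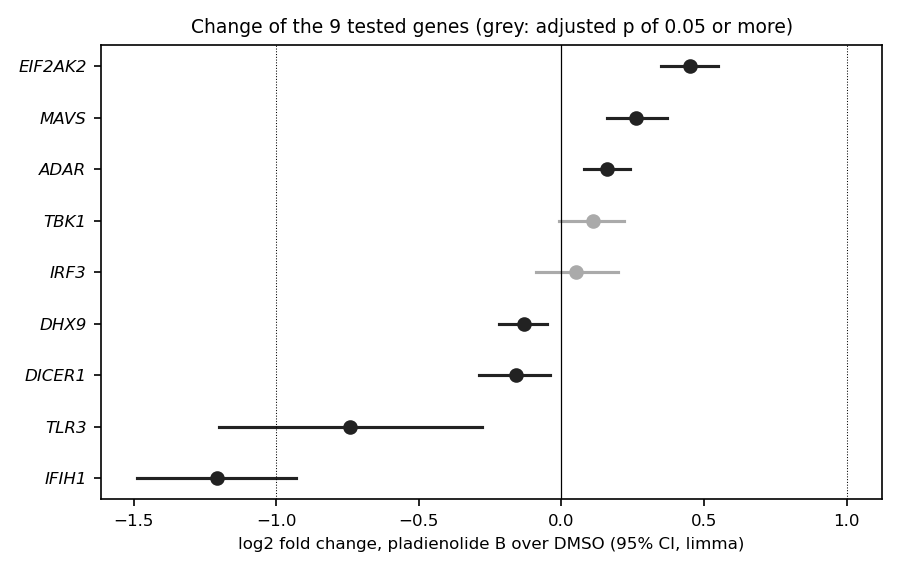
Log2 fold change of plaB over DMSO (horizontal axis) for the 9 tested genes, with 95% confidence intervals from limma, black where the adjusted p was below 0.05 and grey where it was not, and dotted lines at a change of 1 in either direction. IFIH1 at −1.21 and TLR3 at −0.74 lie furthest below 0, EIF2AK2 at 0.45 furthest above it, and the intervals of TBK1 and IRF3 cross 0.

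Levels of different genes were compared per length, as adjusted reads per kilobase of the canonical GENCODE transcript per 1000000 reads (RPKM). In DMSO, DHX9 was the most abundant at 72.3 ± 2.2 (SD, n = 3), followed by ADAR at 32.8 ± 0.758. TBK1 at 16 ± 0.486 and IRF3 at 15.3 ± 0.119 came next, and their samples overlapped, so their order is not resolved. Then came MAVS at 8.96, EIF2AK2 at 7.15 and DICER1 at 5.17. The receptors closed the order, with IFIH1 at 2.67, TLR3 at 0.353 and DHX58 at 0.0756. Apart from TBK1 and IRF3, the DMSO samples of neighbours in this order did not overlap. The order of the means was the same in plaB, where EIF2AK2 reached 9.78 and IFIH1 dropped to 1.15. On all exonic bases of a gene instead of the canonical transcript, the order in the middle changed in DMSO, with MAVS at place 3, EIF2AK2 at 4, IRF3 at 5 and TBK1 at 6, and with 6.46 for EIF2AK2 beside 6.44 for IRF3. The annotated exons of TBK1 add up to 14716 bases against 3022 in the canonical transcript.

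**Figure D3:**
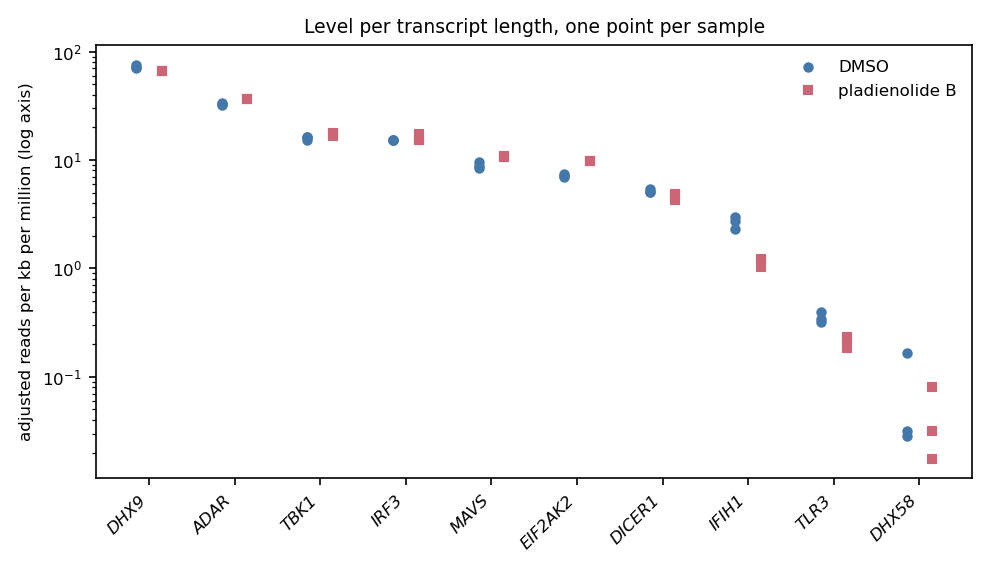
Level per transcript length (vertical log axis, RPKM) of the 10 genes in every sample, DMSO as blue circles and plaB as red squares, ordered by the DMSO mean. The receptors IFIH1, TLR3 and DHX58 sit lowest, and DHX9 at 72.3 and ADAR at 32.8 sit highest.

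Among the 9 tested genes the coefficient of variation in DMSO ran from 0.78% for IRF3 to 12% for IFIH1, with TLR3 at 10.2%, and in plaB from 0.422% for EIF2AK2 to 11.4% for TLR3. IFIH1 and TLR3 also had the fewest reads of the 9. With 3 samples in a group, counting error was not separated from other spread. The genes that fell and those that rose both included canonical transcripts with many introns and with few, and any part of intron number was not tested. IFIH1, DICER1 and DHX9 have 15, 26 and 27 introns and were lower, EIF2AK2 and ADAR have 16 and 14 and were higher, and TLR3 with 4 introns was lower while MAVS with 6 was higher.

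Across all tested genes, the profile over the 6 samples most like that of IFIH1 was TCEA3 (Pearson r of log2 values 0.9994), followed by BAZ1B (0.9991) and ITGA2B (0.9987). Their own log2 fold changes were −0.55, −0.16 and −0.85. The 6 samples form 2 groups, so these values largely follow the difference between the groups. They are also the highest picked from the 16178 tested genes, so values near 1 come in part from the selection.

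The further genes of the RIG-I, MDA5 and TLR3 route, 24 in number and all tested, split in both directions, with 6 higher, 7 lower and 11 that did not pass the threshold (54.2% called beside 47.6% of all tested genes, median log2 fold change 0.05). DDX60, an interferon-induced helicase, had 254, 285 and 268 adjusted reads in DMSO and 128, 144 and 167 in plaB (log2 fold change −0.88, limma adjusted p = 1.1e-05). IRF7, the factor that amplifies interferon alpha, had a mean of 313 in DMSO and 191 in plaB (−0.71, limma adjusted p = 1.4e-05). CYLD, a deubiquitinase that restrains RIG-I, had means of 2733 and 3329 (0.28, limma adjusted p = 0.00021). TOMM70, a mitochondrial import receptor that recruits TBK1 and IRF3 to MAVS, had means of 1282 and 1495 (0.22, limma adjusted p = 0.0021). UNC93B1, the chaperone that carries TLR3 to endosomes, fell with its receptor (log2 fold change −0.54) and was picked out after its values were seen.

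Of 16 genes of the PKR and OAS branch 14 were tested, 7 were higher and 1 lower (57.1% called beside 47.6% of all tested genes, median log2 fold change 0.11). Over all tested genes 22.4% were higher and 25.2% lower. The list also holds other eIF2 kinases and initiation factor genes, which are not particular to PKR or OAS. Of these, EIF2AK4 (0.26), EIF2S1 (0.19), EIF2B1 (0.25), EIF2B2 (0.34) and EIF2B4 (0.17) were higher. EIF2AK1, EIF2AK3, EIF2B3 and EIF2B5 did not pass the threshold. PPP1R15A (GADD34), which brings the phosphatase that reverses the action of PKR on eIF2, had 4523, 3369 and 4426 adjusted reads in DMSO and 6999, 6906 and 6230 in plaB. The groups did not overlap (log2 fold change 0.72, limma adjusted p = 1.6e-06). OAS3, an oligoadenylate synthetase, which makes the second messenger of RNase L, had 64.1, 53.4 and 59.6 adjusted reads in DMSO and 21.9, 20.4 and 26.1 in plaB (−1.34, limma adjusted p = 0.00012), whereas OASL, a relative without synthetase activity, had 17.7, 33.2 and 24.6 in DMSO and 51.2, 72.1 and 46.1 in plaB (1.15, limma adjusted p = 0.0019). OAS1 and OAS2 had at most 1 and 2 reads in any sample.

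In the DNA sensing and nucleic acid clearance list 17 of 19 genes were tested, 2 were higher, 8 lower, and the median was −0.17, where 22.4% of all tested genes were higher and 25.2% lower. CGAS, the sensor of cytoplasmic DNA, had 2366, 2546 and 2485 adjusted reads in DMSO and 2743, 2535 and 2720 in plaB. Its groups overlapped (log2 fold change 0.11, unadjusted 95% CI 0.01 to 0.21, limma adjusted p = 0.065), and it passed by limma without DMSO replicate 2 (0.018) or plaB replicate 2 (0.036). STING1, its adaptor, was higher, from 848, 834 and 841 to 878, 1006 and 962 (0.17, limma adjusted p = 0.032), but not by limma without DMSO replicate 1 (0.061), DMSO replicate 3 (0.07), plaB replicate 2 (0.15) or plaB replicate 3 (0.092). IFI16, a nuclear DNA sensor, rose from a mean of 1923 to 2530 (0.40, limma adjusted p = 2.4e-06). RNASEH2B, a subunit of the RNase H2 that removes RNA from DNA, fell from 574 to 407 (−0.49, limma adjusted p = 4.4e-05), and HMGB1, a chromatin protein that binds nucleic acids, from 12539 to 9933 (−0.33, limma adjusted p = 7.4e-05). The other subunits RNASEH2A (−0.27) and RNASEH2C (−0.21) and the exonuclease TREX1 (−0.30) were lower too, and are named after their values were seen. AIM2 had 0 reads in every sample.

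**Figure D4:**
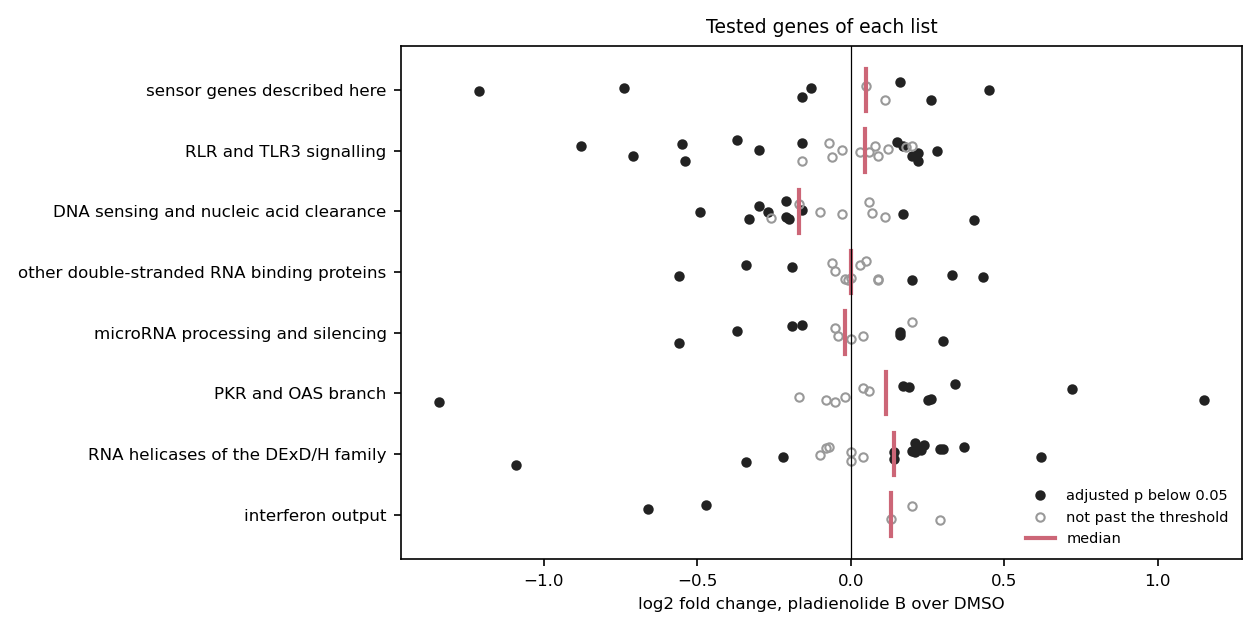
Log2 fold change of plaB over DMSO (horizontal axis) of every tested gene in the sensor set and in 7 lists of related genes, filled where the limma adjusted p was below 0.05, with the median of each list as a red bar. The medians lie between −0.17 for DNA sensing and clearance and 0.14 for the DExD/H helicases, and each list holds genes on both sides of 0.

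Interferon genes, which lie downstream of these sensors, had few or no reads. IFNB1, IFNA1 and RSAD2 had 0 reads in all 6 samples, which at this depth allows up to 3 reads, or 0.115 to 0.133 reads per 1000000, by counting error only. IFNL1 and IFNL3 had at most 1 read, IFNL2 at most 3 and CXCL10 1 to 5. Of 12 genes 5 could be tested, 0 were higher and 2 lower by limma, with a median of 0.13, and the 40% called lies near the 47.6% of all tested genes. IFIT1, which binds RNA without a methylated cap, had 125, 151 and 132 adjusted reads in DMSO and 109, 83.6 and 102 in plaB (−0.47, limma adjusted p = 0.015), a call lost by limma without DMSO replicate 2 (0.056) or plaB replicate 2 (0.073). IFIT2, its partner, had 67.8, 65.5 and 72.9 in DMSO and 36.6, 51 and 43.1 in plaB (−0.66, limma adjusted p = 0.011), lost by limma without plaB replicate 1 (0.051). IFIT3 had means of 205 and 250 (0.29, limma adjusted p = 0.06), ISG15, a ubiquitin-like modifier, 294 and 322 (0.13, adjusted p = 0.31) and MX1, an antiviral GTPase, 95.9 and 109 (0.20, adjusted p = 0.31), and these did not pass the threshold. At an adjusted p below 0.05 limma, edgeR and DESeq2 each counted 0 as higher, and at an unadjusted p below 0.05 limma counted 1, IFIT3. IFIT3 was higher in every plaB sample than in any DMSO sample and passed by limma without DMSO replicate 1 (0.037) or DMSO replicate 2 (0.031).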

How the data were processed

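Polyadenylated RNA of 3 DMSO and 3 pladienolide B samples was sequenced. The submitters' processing notes name HISAT2, HTSeq 0.12.4, DESeq2 and hg19, while the study's methods name hg38; 99.97% of 26990 symbols shared with GENCODE release 44 had positions overlapping that GRCh38 annotation. The authors deposited a signal for each gene and sample, not a raw count, which matched the quantile adjustment that edgeR makes for library size (dispersion 0.0027). Inverting the adjustment put 100% of 148143 values above 0 within 0.05 of a whole read. The authors also deposited fold changes, p-values and q-values, which were not used.

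Genes passing filterByExpr (edgeR 4.0.16, minimum count 10, total 15) were tested with limma 3.58.1 in R 4.3.3, two-sided, with a variance trend, on log2(value + 1), which understates changes of low genes. P-values were adjusted by Benjamini-Hochberg over all 16178 genes at 0.05. Alternatives were no filter, a pseudocount of 0.1, no variance trend, a replicate block, edgeR's quasi-likelihood test (TMM or RLE factors) and DESeq2 1.42.0 on recovered reads, and leaving out each sample. No set test was run.

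The genes and lists were chosen with earlier results of these data known. Named are the 10 genes, SF3B1, DDX58, CGAS, STING1, the interferon output genes, up to 2 rises and 2 falls per list with the largest change among those past the threshold, and the 3 genes most like IFIH1. Any other gene was named after its values were seen.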

Additional observations from a re-analysis of the deposited data

How the results depend on the processing

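Of 117 gene values recomputed under 13 alternatives, 108 kept their direction and side of the threshold, 8 kept the direction but were no longer past it, and 1 turned. IFIH1, MAVS, EIF2AK2 and ADAR were called under all 13, TLR3 and DHX9 under 12 and DICER1 under 7, while TBK1 and IRF3 were called under none. The value that turned was IRF3 without plaB replicate 3, at −0.002, and leaving out single samples moved IRF3 between −0.002 and 0.09. DICER1 was not called by limma with no variance trend (adjusted p = 0.1) or by DESeq2 (0.065). The count of genes called ran from 6381 with no variance trend to 7855 without DMSO replicate 2. With no variance trend, 4 of the microRNA processing genes were called instead of 7. For the interferon output list, leaving out single samples gave 1 to 3 called genes, with 1 without plaB replicate 1 or plaB replicate 2. TNRC6A was not called by limma without plaB replicate 1 (adjusted p = 0.11), nor, with no variance trend, were TNRC6A and STING1 (both 0.077) or KRT18 (0.057). The replicate block brought IFIT3 past the threshold (0.047), and edgeR with RLE factors CGAS (0.042). The cause was not tested. Replicate numbers were shared between the groups, but the deviations of samples with the same number correlated at −0.02, −0.02 and 0.00, so they were not treated as pairs. With the replicate block, 7349 genes and 7 of the 9 sensor genes were called. DHX58 could be fitted only with no filter, and genes with few reads, such as TLR3 and OAS3, have wide intervals at this depth.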

Other observations

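A further list held other RNA helicases of the DExD/H family, to which MDA5, LGP2 and DHX9 belong. It leaves out family members counted elsewhere, so its counts do not describe the whole family. Of those left out, IFIH1 (log2 fold change −1.21), DDX60 (−0.88), DDX58 (−0.37), DDX41 (−0.21) and DHX9 (−0.13) were lower. Of the 20 tested genes in the list 11 were higher and 3 lower, with a median log2 fold change of 0.14, beside 22.4% higher and 25.2% lower over all tested genes. DDX46, a helicase of the U2 snRNP that works beside SF3B1, had 4031, 4422 and 4114 adjusted reads in DMSO and 1998, 1964 and 1942 in plaB (log2 fold change −1.09, limma adjusted p = 2.3e-11). DDX5 fell from a mean of 18838 to 14873 (−0.34). DHX37, a ribosome assembly helicase, rose from 742 to 1142 (0.62), and DHX15, which releases the spent spliceosome, from 4146 to 5335 (0.37).

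Among 12 genes of microRNA processing and silencing 3 were higher and 4 lower, with a median of −0.02, and 58.3% were called beside 47.6% of all tested genes. PRKRA (PACT), which binds DICER1 and can activate PKR, fell from 525 ± 38.5 to 357 ± 16.2 adjusted reads (log2 fold change −0.56, limma adjusted p = 2.8e-05). AGO4 fell (−0.37) and AGO3 rose (0.30), both Argonaute proteins that hold small RNAs, and TNRC6A, their silencing partner, rose (0.16). Of 15 other double-stranded RNA binding proteins 3 were higher, 3 lower and 9 not past the threshold, and 40% were called beside the same 47.6%. The 2 lists share DROSHA, DGCR8, TARBP2 and PRKRA, so PRKRA and DGCR8 count as lower in both. NKRF (0.43) and MRPL44 (0.33) rose, and STAU2 fell (−0.34).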
